A study of Equus caballus with 8 samples.

Results

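Cell cycle and proliferation genes were followed in the endometrium, the inner lining of the uterus, of mares at Day 12, either pregnant or in the oestrous cycle. The set is a list of 40 genes of DNA replication and mitosis, taken by name, with earlier results of these data known. All 40 were found by gene symbol among the 24942 genes of the count table. Each had at least 15 reads over the 8 libraries, so none was dropped for having under 10. Of the 40, 27 passed the filter on low counts and were tested, among 15342 genes tested in all, and the other 13 are given by their reads only.

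The libraries came from transcervical biopsies of 4 healthy Bavarian Warmblood mares, each sampled once pregnant and once not, in random order, which gave 4 pregnant and 4 cyclic libraries in pairs. In both states the mares received 1500 IU human chorionic gonadotropin to bring on ovulation, all were inseminated with semen of 1 stallion, and the uterus was flushed before the biopsy. Pregnancy was established by an embryonic vesicle on ultrasound. The biopsies hold epithelium, stroma, vessels and immune cells together, so fewer cells of a type and less RNA per cell cannot be told apart.

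Cells that divide first license their replication origins, when CDC6 and CDT1 load the ring of MCM proteins onto DNA. They then copy the genome and at last separate the chromosomes with kinases, motors and checkpoint proteins that are made chiefly in G2 and mitosis. Transcripts of the mitotic genes are usually low in resting tissue. In the endometrium, oestrogen is known to drive epithelial division, and progesterone, which is high at this stage, to restrain it.

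Few of these genes passed the test between the states. MCM7, a subunit of the replicative helicase, rose 1.34-fold. CDC6, the loader of that helicase, fell 1.32-fold, FOXM1, a transcription factor of G2 and mitotic genes, fell 1.85-fold, and UHRF1, which helps to copy DNA methylation to new strands, fell 2.00-fold. That is 1 gene higher and 3 lower of 27 tested, against 8.53% of all tested genes higher and 8.19% lower. Together 4 of 27 changed beside 16.7% of all genes, a share near the background, and 7 of 27 (25.9%) had an unadjusted p under 0.05, among them MCM6, MKI67 and PRC1, beside 30.7% of all genes tested. Without the mare as a replicate block CDC6 alone passed, and FOXM1 and UHRF1 were lost when mare 1, 2 or 3 was left out. The median log2 fold change (pregnant minus cyclic) was -0.01 over the 27 genes and 0.00 over all genes tested, and their median size regardless of sign was 0.24 against 0.17. Values are counts per 1e+06 reads (CPM) with library sizes scaled by edgeR's TMM method, and a gene is said to rise or fall where edgeR's quasi-likelihood test with the mare as a block gave a Benjamini-Hochberg adjusted p below 0.05. CPM are not divided by transcript length, so the states are compared within a gene. Shares, sums, rankings and level cut-offs across genes also depend on transcript length.

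**Figure D1:**
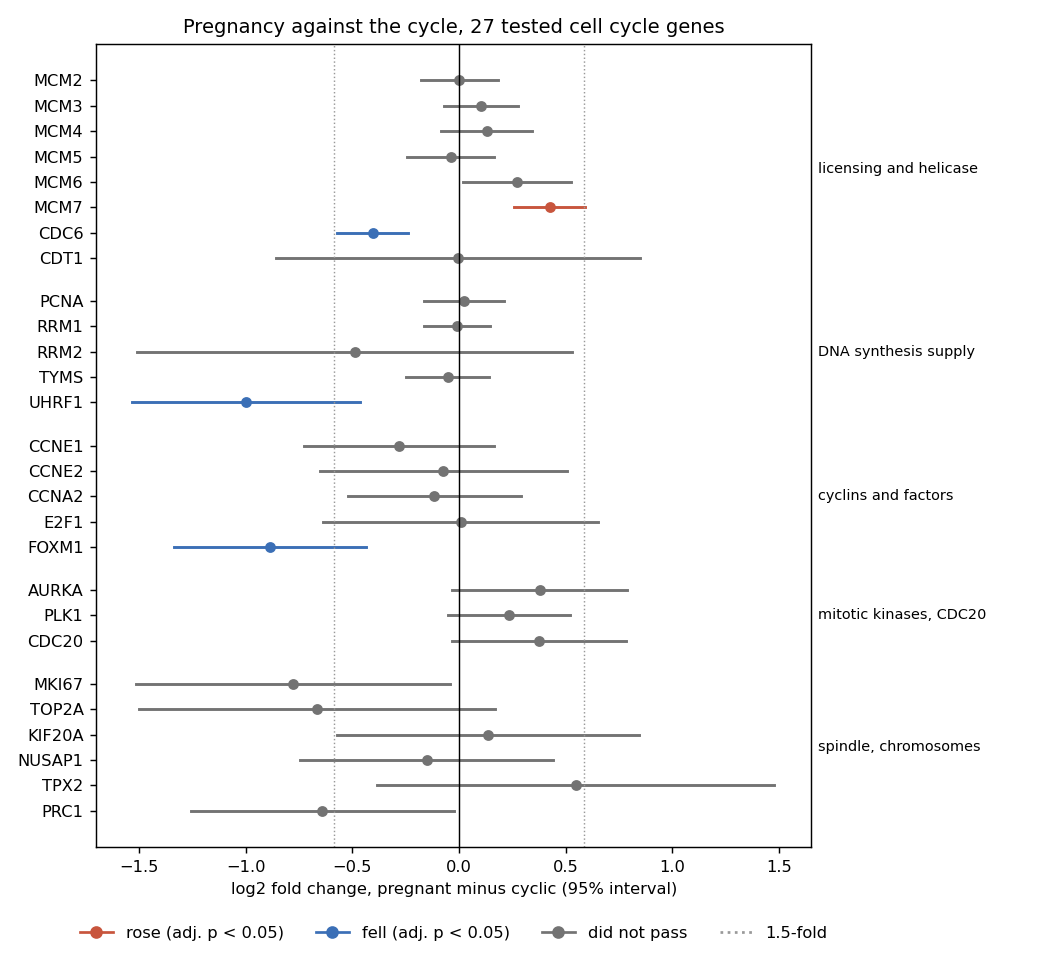
Log2 fold change of pregnancy minus the cycle (x axis) for the 27 tested cell cycle genes (y axis), grouped by role, with the 95% interval as a line and dotted lines at a 1.5-fold change. MCM7 lies to the right at 0.42, CDC6, FOXM1 and UHRF1 lie to the left at -0.40, -0.89 and -0.999, and the other genes did not pass the test.

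Depth was alike in 7 libraries, at 15485568 to 16703347 counts, and lower at 9812053 in the pregnant library of mare 1. Markers of the tissue were present in all libraries, with a summed level of 10 epithelial markers of 1810 to 2414 CPM and of 11 stromal markers of 4161 to 6127 CPM. The IDs of KRT8, KRT19 and COL3A1 were not matched and these markers were not analysed here. Cell type markers differed between the states: 10 of 12 tested endothelial, 6 of 10 smooth muscle and pericyte, 5 of 10 stromal, 6 of 15 T and NK cell, 3 of 6 B and plasma cell and 1 of 10 macrophage markers rose, with none lower in these lists, and 3 of 10 epithelial markers fell, with none higher. Of all tested genes, 8.53% were higher and 8.19% lower, and the macrophage count was near that share. Without the replicate block the marker counts, in the same order, were 9, 6, 2, 0, 1 and 1 higher and 0 epithelial markers lower. In that fit 389 of all 15342 tested genes were called in either direction. Stromal calls fell to 3 without mare 1. T and NK calls were 3, 2 and 3 without mares 1, 2 and 4, epithelial calls were 1 without each of those mares, and without mare 3 macrophage calls were 2 and 1 epithelial marker was higher. The summed endothelial level was 697 to 1367 CPM in cyclic and 1077 to 1583 CPM in pregnant libraries, that of smooth muscle 310 to 541 and 534 to 841 CPM, and that of epithelium 2011 to 2414 and 1810 to 2035 CPM. T and NK markers summed to 136 to 218 and 180 to 265 CPM, B and plasma markers to 47.0 to 113 and 79.5 to 123 CPM, and macrophage markers to 177 to 276 and 213 to 284 CPM. Stromal markers summed to 4161 to 5630 and 5017 to 6127 CPM. This stromal sum was higher in pregnancy in mares 1 and 3 but lower in mares 2 and 4. The B and plasma sum was lower in pregnancy in mare 1 and higher in the other mares, and the macrophage sum was level in mare 3. No matched marker of these lists was at 0 in all libraries. The part of these shifts in the changes of cell cycle genes was not tested.

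Licensing and the helicase came first in order of the cycle. MCM7 (Gene ID 100068673) had 63.4, 49.4, 62.7 and 50.8 CPM in the cyclic libraries of mares 1 to 4 and 77.6, 76.6, 80.2 and 67.9 CPM in their pregnant libraries. Every pregnant library was above every cyclic one, and the rise was seen in 4 of 4 mares. The means were 56.6 ± 7.51 and 75.6 ± 5.32 CPM (SD, n = 4), and the log2 fold change was 0.42 ± 0.07 (SE; edgeR adjusted p = 0.00518). Without the mare as a replicate block its adjusted p was 0.0738, the highest over the 13 alternatives tried and the one in which the call was lost. In RefSeq's gene table of the horse assembly TB-T2T, the span of MCM7 holds the microRNA genes MIR25, MIR93 and MIR106B.

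Its partners in the ring, MCM2 to MCM6, did not pass. MCM2 (100053690) had 24.5, 22.6, 29.1 and 30.0 CPM in the cyclic and 26.3, 22.3, 27.4 and 30.2 CPM in the pregnant libraries of mares 1 to 4. The groups overlapped almost entirely, with means of 26.5 ± 3.55 and 26.6 ± 3.27 CPM (SD, n = 4; edgeR adjusted p = 0.994). MCM3, MCM4, MCM5 and MCM6 had log2 fold changes of 0.10, 0.13, -0.04 and 0.27. MCM6 had 11.5 ± 1.03 and 14.0 ± 1.81 CPM (SD, n = 4) and a higher pregnant value in each mare (edgeR adjusted p = 0.135). The share of MCM7 in the summed CPM of the 6 subunits was set out after its values were seen and is a description without a test. It was 36.2%, 33.4%, 37.9% and 31.7% in the cyclic and 39.4%, 41.3%, 43.0% and 38.3% in the pregnant libraries of mares 1 to 4. The lowest pregnant share lay just above the highest cyclic one. The 5 subunits other than MCM7 summed to 106 ± 5.95 and 111 ± 5.75 CPM (SD, n = 4).

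CDC6 (100067788), which brings the MCM ring to origins, moved the other way. It had 65.2, 61.5, 56.6 and 61.7 CPM in the cyclic and 47.1, 41.5, 46.2 and 50.3 CPM in the pregnant libraries of mares 1 to 4. Every pregnant library was below every cyclic one. The log2 fold change was -0.40 ± 0.07 (SE; edgeR adjusted p = 0.00618; lower in 4 of 4 mares), and CDC6 was called under all 13 alternatives, with a highest adjusted p of 0.0458. CDT1, its partner in loading, had 7 to 23 reads per library and means of 0.834 ± 0.22 and 0.820 ± 0.321 CPM (SD, n = 4). The fold change of CDT1 had a 95% interval from 0.552 to 1.80, so a change as large as that of CDC6 was not detectable at this depth. CDC45, which joins the ring to form the active helicase, had 35 reads in all and was not tested.

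Of the 5 DNA synthesis genes only UHRF1 passed in edgeR. PCNA (100052065), the sliding clamp of DNA polymerases, had 20.6, 23.4, 25.0 and 22.9 CPM in the cyclic and 21.3, 25.5, 23.7 and 22.9 CPM in the pregnant libraries of mares 1 to 4. Neither group stood above the other, with a log2 fold change of 0.02 ± 0.08 (SE; edgeR adjusted p = 0.887). Its fold change had a 95% interval of 0.892 to 1.16. RRM1, the large subunit of ribonucleotide reductase, had 48.0 ± 0.386 and 47.8 ± 2.55 CPM, and TYMS, which makes thymidylate, had 21.1 ± 1.39 and 20.4 ± 1.53 CPM (SD, n = 4). RRM2, the small subunit of the reductase, had 3 to 17 reads per library, and its fold change had a 95% interval of 0.351 to 1.45.

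UHRF1 (100062347) binds DNA that is methylated on 1 strand and recruits the methyltransferase DNMT1. It had 3.54, 7.98, 6.21 and 4.09 CPM in the cyclic and 1.89, 2.51, 2.76 and 3.49 CPM in the pregnant libraries of mares 1 to 4. The lowest cyclic value, of mare 1, was just above the highest pregnant one, of mare 4, whose own pair differed least. The log2 fold change was -0.999 ± 0.24 (SE; edgeR adjusted p = 0.0198; lower in 4 of 4 mares). This call was lost without mare 1 (adjusted p = 0.0692), without mare 2 (0.0793), without mare 3 (0.0765) and without the replicate block (0.104), while the log2 fold change stayed between -1.28 and -0.76 over the alternatives. DNMT1, looked up after these values were seen, had 56.3 ± 1.42 and 53.0 ± 3.84 CPM (SD, n = 4; edgeR adjusted p = 0.405).

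Among the cyclins and transcription factors, only FOXM1 passed in edgeR. FOXM1 (100050775) had 4.51, 4.46, 4.84 and 3.72 CPM in the cyclic and 2.39, 1.74, 2.59 and 2.78 CPM in the pregnant libraries of mares 1 to 4. The groups did not overlap. The log2 fold change was -0.89 ± 0.20 (SE; edgeR adjusted p = 0.0161; lower in 4 of 4 mares). Its call was lost without mare 1 (adjusted p = 0.0706), without mare 2 (0.0569), without mare 3 (0.0538) and without the replicate block (0.0586). In the TB-T2T table the spans of FOXM1 and RHNO1 overlap, and the kit as described does not mark the strand.

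CCNE1 (100053882), the cyclin that starts S phase, had 6.50, 11.4, 9.68 and 5.58 CPM in the cyclic and 4.67, 8.51, 5.90 and 7.87 CPM in the pregnant libraries of mares 1 to 4. It was lower in 3 mares and higher in mare 4, and the groups overlapped (log2 fold change -0.28 ± 0.20, SE; edgeR adjusted p = 0.374). Its log2 fold change was -0.13 without mare 3 and -0.54 without mare 4 (edgeR adjusted p = 0.0531), the extremes when a mare was left out. E2F1 (100069192), a transcription factor of S phase genes, had 0.837, 0.817, 1.49 and 1.12 CPM in the cyclic and 1.29, 0.838, 1.12 and 1.07 CPM in the pregnant libraries. Those levels rest on 13 to 24 reads each and did not separate the states (edgeR adjusted p = 0.990). CCNE2 and CCNA2, cyclins of S phase, had log2 fold changes of -0.07 and -0.12. CDK1 (100072299), the kinase that drives entry into mitosis, had 7, 3, 4 and 9 reads in the cyclic and 1, 6, 4 and 8 reads in the pregnant libraries of mares 1 to 4. CDK1 and its partners CCNB1 and CCNB2 had 42, 43 and 22 reads in all and were not tested.

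**Figure D2:**
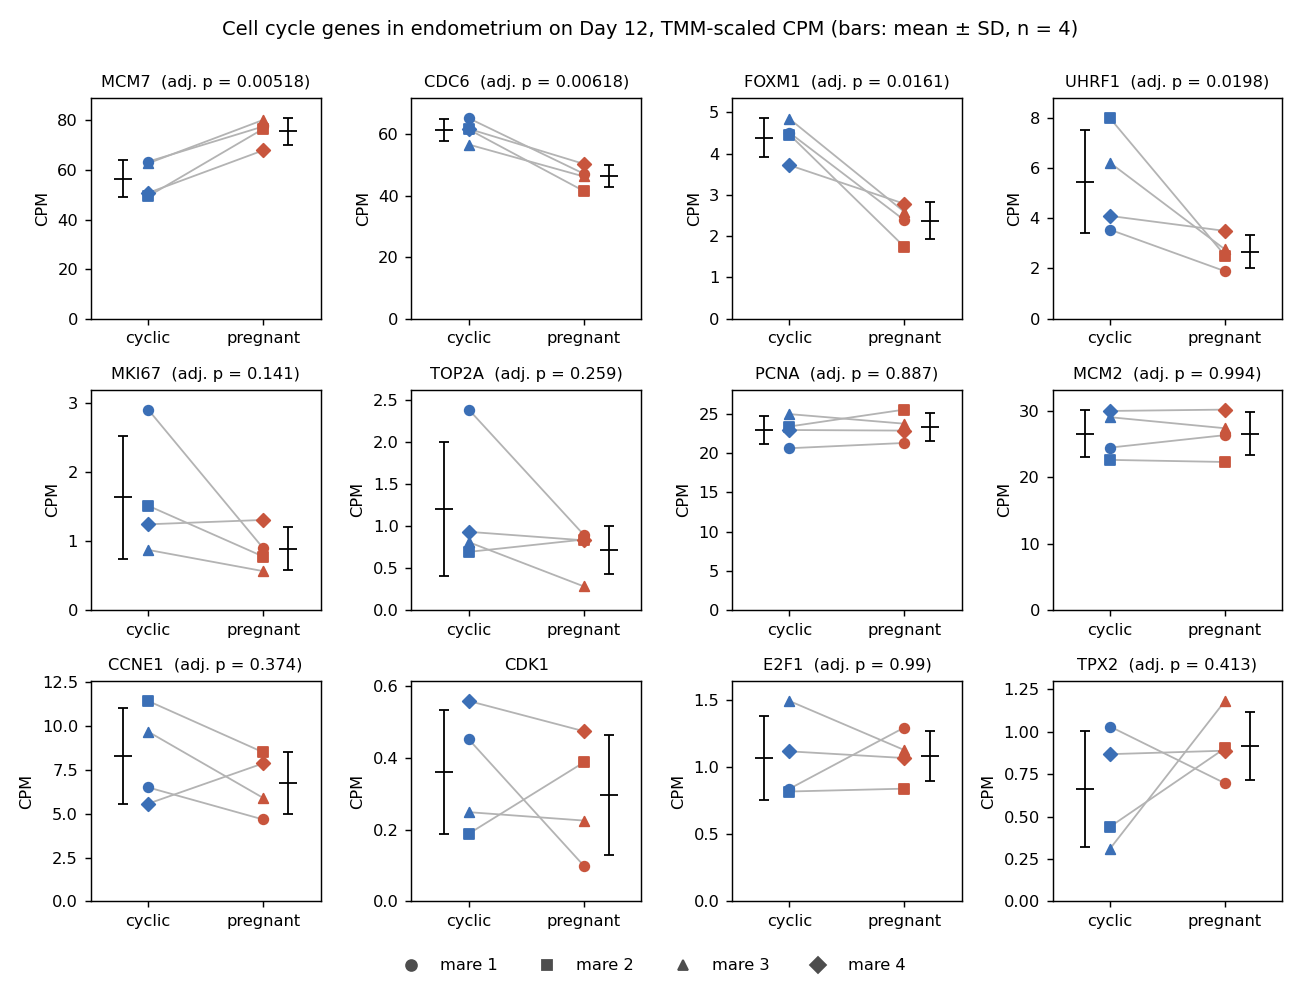
TMM-scaled CPM (y axis, from 0) of 12 cell cycle genes in the cyclic and pregnant library of each mare, joined by lines, with the mean ± SD (n = 4) beside each group. MCM7, CDC6, FOXM1 and UHRF1 separate the states, while MCM2 and PCNA stay level and MKI67 and TOP2A have their highest value in the cyclic library of mare 1.

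Mitotic kinases and the anaphase activator were tested for 3 of 8 genes, and 0 passed in edgeR, DESeq2 or limma-voom (0 of 3 at an unadjusted edgeR p under 0.05). AURKA, a kinase of the centrosome and spindle, had 3.85 ± 0.911 and 4.95 ± 0.463 CPM (SD, n = 4), and CDC20, which activates the anaphase-promoting complex, had 2.53 ± 0.43 and 3.27 ± 0.305 CPM. PLK1, a kinase of mitotic entry and spindle poles, had 6.21 ± 1.25 and 7.30 ± 1.37 CPM. The log2 fold changes of AURKA, PLK1 and CDC20 were 0.38, 0.24 and 0.37, with edgeR adjusted p of 0.195, 0.244 and 0.196. PLK1 and CDC20 were higher in 4 of 4 mares and AURKA in 3. In the TB-T2T table AURKA overlaps FAM210B and PLK1 overlaps ERN2, and reads of overlapping genes cannot be told apart where strand is not marked. AURKB and BIRC5, of the chromosomal passenger complex, and TTK, BUB1 and BUB1B, of the spindle checkpoint, were not tested.

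Spindle and chromosome genes, with the proliferation antigen, were tested for 6 of 10 genes, and 0 passed in edgeR, DESeq2 or limma-voom (2 of 6 at an unadjusted edgeR p under 0.05). MKI67 (100055048), whose protein coats mitotic chromosomes and is the usual tissue marker of dividing cells, had 2.90, 1.51, 0.869 and 1.24 CPM in the cyclic and 0.895, 0.774, 0.562 and 1.30 CPM in the pregnant libraries of mares 1 to 4. These levels came from 45, 24, 14 and 20 reads and from 9, 12, 10 and 22 reads. MKI67 was lower in 3 mares and about level in mare 4, and the groups overlapped. Its log2 fold change was -0.78 ± 0.33 (SE; edgeR adjusted p = 0.141), and it ran from -1.12 without mare 4 to -0.47 without mare 1.

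TOP2A (100054229), which untangles sister chromosomes, had 2.38, 0.691, 0.807 and 0.930 CPM in the cyclic and 0.895, 0.838, 0.281 and 0.83 CPM in the pregnant libraries of mares 1 to 4. The cyclic library of mare 1 stood apart, and 3 of the pregnant values lay among the other cyclic ones (log2 fold change -0.66 ± 0.37, SE; edgeR adjusted p = 0.259). Its log2 fold change ran from -0.98 without mare 2 to -0.37 without mare 1. TPX2 (100053648), a spindle assembly factor, had the highest log2 fold change of the 27 genes with all mares in the fit, at 0.55 ± 0.41 (SE; edgeR adjusted p = 0.413). Its value was 0.14 without mare 3, below that of MCM7 (0.44), and 0.90 without mare 1. It had 1.03, 0.440, 0.310 and 0.868 CPM in the cyclic and 0.696, 0.902, 1.18 and 0.888 CPM in the pregnant libraries, so it was lower in mare 1 and higher in the other mares. PRC1, which bundles midzone microtubules, was lower in 4 of 4 mares, at 1.49 ± 0.434 and 0.935 ± 0.273 CPM (edgeR adjusted p = 0.147). KIF20A, a motor of cytokinesis, and NUSAP1, a spindle protein, had log2 fold changes of 0.14 and -0.15.

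The 13 genes too low to test had 15 reads (TTK) to 84 reads (CENPF) over all libraries. Of their 104 values, 3 were 0, namely CCNB2 and TTK in the pregnant library of mare 1 and TTK in that of mare 3. A count of 0 allows up to 3 reads, which is 0.298 CPM in the former library and 0.169 CPM in the latter, for counting error only. CENPF, a kinetochore protein, had 28, 9, 8 and 10 reads in the cyclic and 6, 12, 4 and 7 reads in the pregnant libraries of mares 1 to 4, so its one high value was again that of the cyclic library of mare 1. BUB1 had 6, 6, 3 and 9 reads and then 2, 11, 1 and 15 reads, a spread over the pregnant libraries that exceeds the gap between the groups. Mean CPM was higher in the cycle for 7 of the 13 and higher in pregnancy for 6. With the filter on low counts removed, all 40 genes were tested in edgeR and 0 of the 13 passed (0 at an unadjusted p under 0.05). DESeq2 gave 0 of 13 at an unadjusted p under 0.05.

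**Figure D3:**
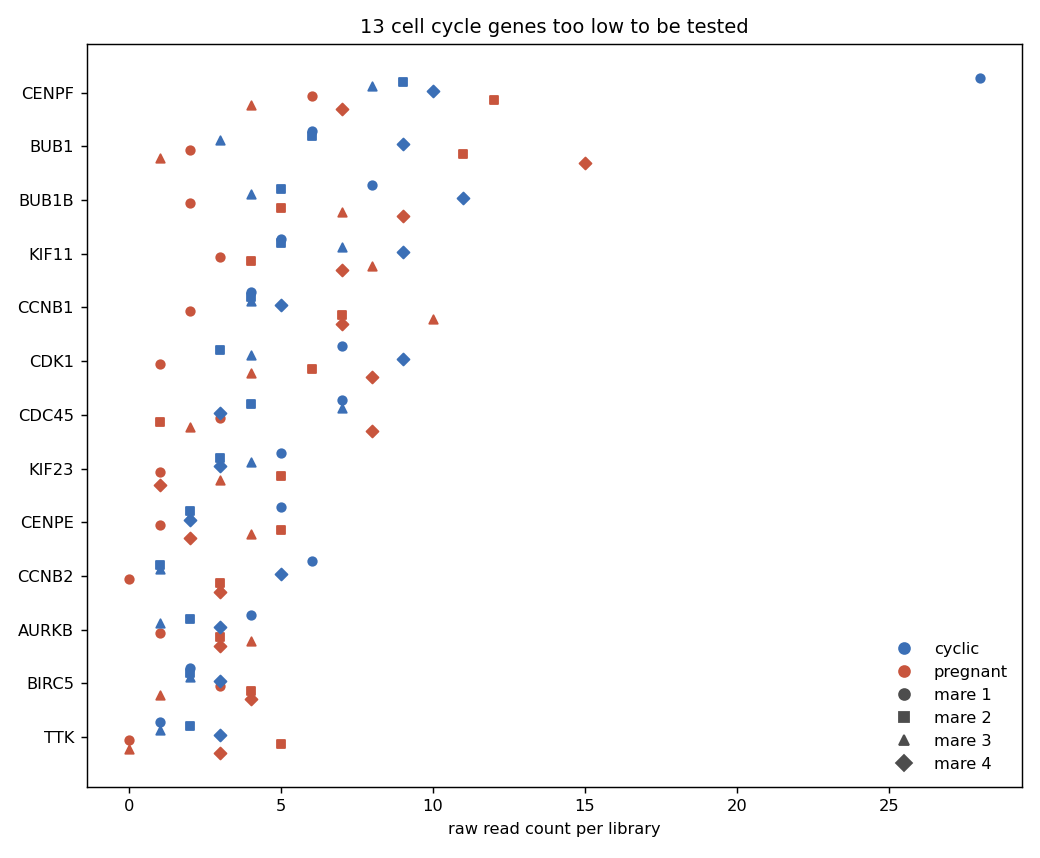
Raw reads per library (x axis) of the 13 cell cycle genes that were too low to test (y axis), with cyclic libraries in blue, pregnant libraries in red and a symbol for each mare. Values run from 0 to 28, the highest being that of CENPF in the cyclic library of mare 1.

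Levels were also summed by role, as a description without a test. The 9 licensing genes summed to 225 ± 12.8 CPM in cyclic and 234 ± 7.98 CPM in pregnant libraries (SD, n = 4), and the 5 synthesis genes to 98.3 ± 4.87 and 94.7 ± 3.9 CPM. The 8 cyclins, kinase and transcription factors summed to 19.0 ± 3.06 and 15.2 ± 2.16 CPM. Mitotic kinases and checkpoint genes summed to 13.8 ± 1.80 and 16.9 ± 1.36 CPM and were higher in pregnancy in each mare. AURKA, PLK1 and CDC20, which did not pass, made up most of this sum. The other genes of that role had group means of at most 0.463 CPM (BUB1, pregnant). The 10 spindle and chromosome genes summed to 8.62 ± 2.94 and 6.54 ± 0.731 CPM and were lower in each mare. That last sum was 12.8, 7.29, 6.08 and 8.30 CPM in the cyclic and 6.07, 6.96, 5.79 and 7.34 CPM in the pregnant libraries of mares 1 to 4. Its highest value was that of the cyclic library of mare 1, and without it the groups spanned nearly the same range.

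**Figure D4:**
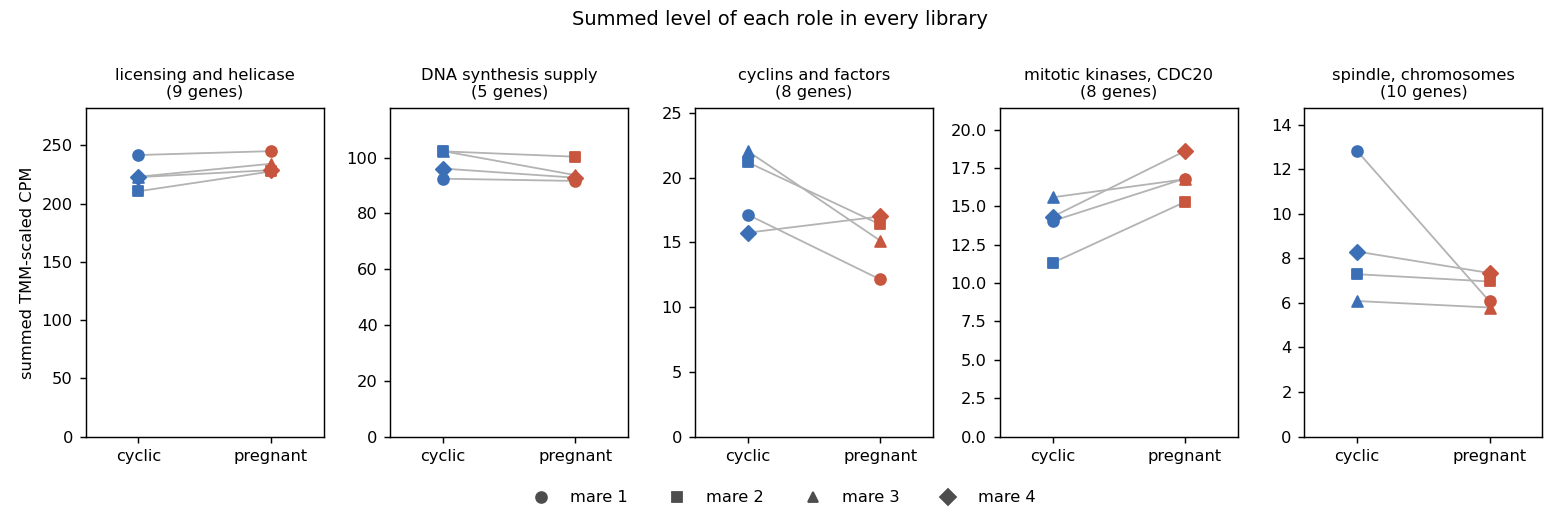
Summed TMM-scaled CPM (y axis, from 0, a scale for each panel) of the genes of 5 roles in the cyclic and pregnant library of each mare. Licensing and synthesis lie near their cyclic means of 225 and 98.3 CPM in both states, and the spindle panel has its highest point, 12.8 CPM, in the cyclic library of mare 1.

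How firmly an absent call can be read depends on the depth of the gene. Of the 10 tested genes with a mean of at least 10 CPM, 2 changed, beside 19.5% of all tested genes at that level, and of the 17 below it 2 changed, beside 11.2%. Of the former 10, 9 had a 95% interval of the fold change that lay wholly within 1.5-fold either way, CDC6 among them, beside 81.3% of all tested genes at that level. The exception was MCM7, with an interval of 1.20 to 1.51. The 8 uncalled genes of that level had intervals between 0.841 and 1.44. Under 10 CPM, 2 of 17 genes, CCNA2 and PLK1, had such an interval, beside 26.2% of all tested genes at that level, and the 15 uncalled intervals ran from 0.350 to 2.78. The 10 genes with a mean of at least 10 CPM were MCM2 to MCM7, CDC6, PCNA, RRM1 and TYMS, whereas CDT1, RRM2 and UHRF1 had wide intervals like most mitotic genes. The whole set gave 11 of 27 against 62.8%.

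Differences between mares were tested as well. The test of the 3 mare terms together in edgeR passed for 0 of 27 genes, beside 15.9% of all genes tested, and 2 of 27 (7.41%) had an unadjusted p under 0.05, beside 34.1% of all genes. The lowest adjusted p was 0.0882, and limma-voom also called 0. Of all tested genes, 17.9% were called between mares at a mean of at least 10 CPM and 11.8% below it, whereas 0 of 10 and 0 of 17 cell cycle genes were. Counted by library without a test, the cyclic library of mare 1 held the highest value of 9 of the 40 genes and the lowest of 1. Conversely, the pregnant library of the same mare, with the fewest reads, held the lowest value of 11 of 40, including 6 of the 13 genes too low to test. Over the 27 tested genes these counts were 6, 1 and 5, beside 10.8%, 11.6% and 12.6% of all genes tested. Such shares were not worked out for all genes too low to test. The counts over the 40 and the 13 genes therefore have no background beside them. Between the states, 9 of 27 genes moved the same way in all 4 mares, beside 38.8% of all genes tested, and 4 of 27 had groups that did not overlap, 1 higher and 3 lower in pregnancy, beside 10.7% of all genes (6.00% higher, 4.73% lower).

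Other genes of the cell cycle were taken from 5 lists. The brakes CDKN1B, CDKN2A and GAS1 were not matched in the count table and were not analysed here. The same holds for E2F8, CHAF1A, ASF1B, CKS2, SMC2 and TUBA1B of the other lists. Of 9 tested G1 cyclins and their kinases 1 rose, CCND2, a D-type cyclin that answers growth signals, from 32.3 ± 8.59 to 43.4 ± 4.22 CPM (SD, n = 4; edgeR adjusted p = 0.0232). Its call was lost without mare 1 (0.0875), without mare 2 (0.0658), without mare 4 (0.0605) and without the replicate block (0.246). Of 21 tested brakes and quiescence genes 1 rose, BTG1, an antiproliferative cofactor, at 155, 179, 169 and 157 CPM in the cyclic and 211, 227, 239 and 202 CPM in the pregnant libraries of mares 1 to 4. BTG1 rose 1.33-fold with groups that did not overlap (edgeR adjusted p = 0.00433) and was called under all 13 alternatives. Of 15 E2F, MYB and MuvB genes 0 changed in edgeR, DESeq2 or limma-voom (0 at an unadjusted edgeR p under 0.05). The most abundant, the chromatin protein RBBP4 and the MuvB subunit LIN37, had log2 fold changes of 0.06 and 0.10. The edgeR calls of 1 of 9, 1 of 21 and 0 of 15 lay near or below the 16.7% of all tested genes. An unadjusted edgeR p under 0.05 was seen for 3, 5 and 0 of them, beside 30.7% of all genes tested. The list medians of the log2 fold change were 0.05, -0.07 and 0.06.

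The wider replication and mitosis lists gave 1 of 43 and 4 of 54 tested genes changed, below the 16.7% of all genes, with medians of 0.01 and -0.03. In the S phase list RFC4, of the clamp loader, was at the threshold (1.29-fold higher; edgeR adjusted p = 0.0490) and was called in 4 of 13 alternatives. It was not called by DESeq2 (0.0734) or limma-voom (0.0635), without the replicate block (0.348), without the robust setting (0.0694), with library totals (0.0563) or DESeq2 size factors (0.0516), or without mare 1 (0.205), mare 3 (0.174) or mare 4 (0.0580). In the G2 and mitosis list CDC25B, a phosphatase that activates CDK1, rose from 17.0 ± 1.53 to 26.6 ± 6.36 CPM (SD, n = 4; edgeR adjusted p = 0.00673). SPC24 and CENPU, which are kinetochore subunits, rose 1.54-fold (edgeR adjusted p = 0.0131) and 1.51-fold (0.00896). KIF18A, a kinesin that positions chromosomes, fell 1.54-fold (edgeR adjusted p = 0.0271). Without the replicate block CDC25B had adjusted p = 0.0680, CENPU 0.0984, SPC24 0.100 and KIF18A 0.131. SPC24 was also lost without mare 1 (0.0681), and KIF18A without mare 1 (0.116), mare 3 (0.0886) or mare 4 (0.0622) and in DESeq2 (0.0722).

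**Figure D5:**
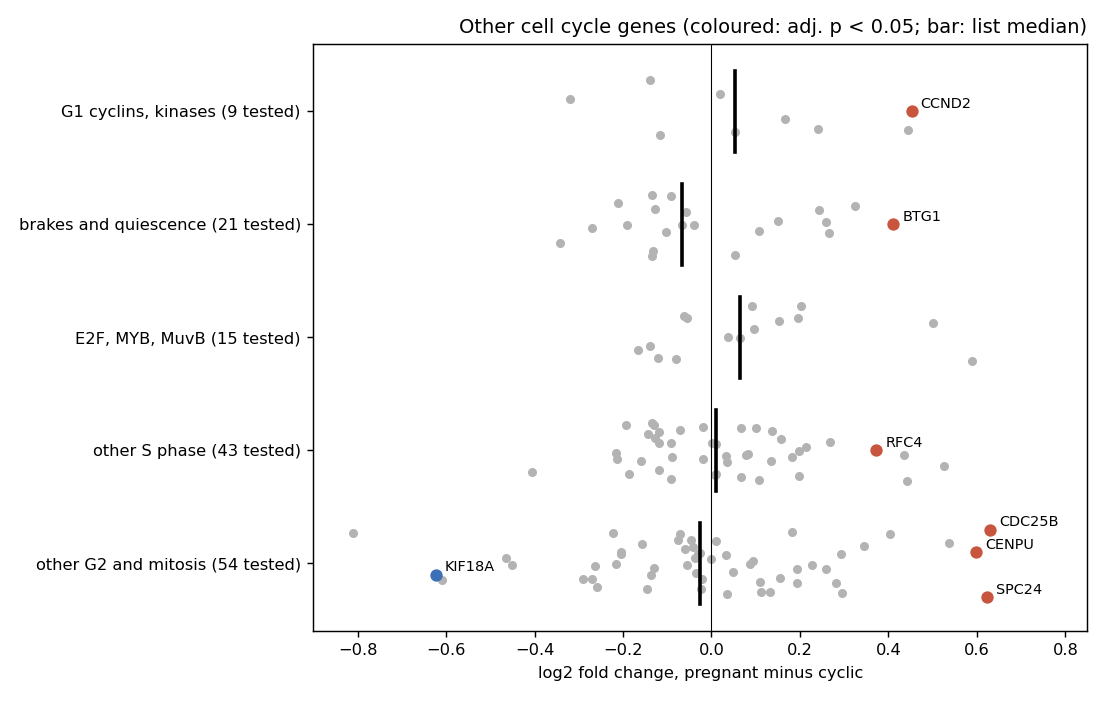
Log2 fold change of pregnancy minus the cycle (x axis) for the tested genes of 5 other cell cycle lists (y axis), each gene a point and each list median a bar. Coloured points passed the test (7 genes, 6 of them higher in pregnancy), and the medians lie between -0.07 and 0.06.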

How the data were processed

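Raw read counts per gene (NCBI Gene ID) were deposited by the authors for 8 libraries, as was a table of signal values that equals TMM-scaled CPM for 14037 genes and served 1 alternative. The submitters' processing notes list Trimmomatic 0.32.2 and HISAT2 2.0.3. The sources used here do not give the build, annotation or counter. RNA was poly(A)-selected, and the kit as described does not mark the strand, per the labels' protocols.

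Symbols came from RefSeq's TB-T2T table (21420 of 24942 IDs matched). No promoter was searched. Main tests used edgeR 4.0.16 (R 4.3.3): filterByExpr (minimum count 10), TMM and the robust quasi-likelihood F-test, blocked by mare. The pairing is stated in the series' design text. Deviations from the group mean of log CPM correlated at 0.54, 0.38, 0.48 and 0.47 across genes in same-mare libraries, and at most -0.02 between mares. Taking off the group means makes the between-mare values negative on average where same-mare ones are positive. The between-mare values are therefore no independent contrast. SE is the log2 fold change over the square root of F. Alternatives used DESeq2 1.42.0, limma 3.58.1 (voom, or log2 of the scaled values plus 1), other scalings and filters, no block, and each mare left out. On simulated counts for the pregnancy comparison (15342 genes, 200 changed, 3 draws) the test recovered 54.7% of 1.5-fold, 84.6% of 2-fold and 98.0% of 4-fold changes. On average 10.9% of calls were false, a share above the adjusted p threshold of 0.05. The changed genes were drawn from all levels and were fewer than the 2565 called in the data. These shares therefore need not hold for genes with few reads.

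The genes and lists were chosen with earlier results of these data known. Given with all values are the changed genes of the set, MKI67, TOP2A, PCNA, MCM2, CCNE1, CDK1, E2F1 and FOXM1, and the highest and lowest log2 fold change. Of other lists, up to 4 changed genes by p, or the 2 most abundant, are named. Means or reads of other genes of the set, such as CENPF, BUB1 and AURKA, were chosen for the text after their values were seen.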

Additional observations from a re-analysis of the deposited data

Results flagged for a closer look

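Within the groups of 4, a library was set apart where its gap to the nearest other value took up more of the group's range than Dixon's 95% critical value allows. Of 64 groups looked at, 2 met this, both of TOP2A, and chance gives about 1 in 20. TOP2A had 2.38 CPM (37 reads) in the cyclic library of mare 1, against 0.691 to 0.930 CPM in the other cyclic libraries. It had 0.281 CPM (5 reads) in the pregnant library of mare 3, against 0.83 to 0.895 CPM in the other pregnant libraries.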

How the results depend on the processing

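Over 13 alternatives, 207 of 249 values of 20 named genes kept their direction and their side of the threshold. Without the replicate block the calls were 389 over all genes, 0 higher and 1 lower among the 40 cell cycle genes, and 0 in both the wider S phase and the G2 and mitosis lists. With genes kept at 5 CPM in 4 libraries, 1 of 12 tested cell cycle genes was lower, since FOXM1 and UHRF1 were not tested, and brakes gave 2 calls, as they did with library totals. The S phase list had 0 calls under DESeq2, limma-voom, library totals, DESeq2 size factors and without the robust setting. Leaving out a mare gave 1266 (without mare 1) to 2057 calls over all genes, 1 to 3 cell cycle genes lower, 0 to 2 S phase, 2 to 4 mitosis and 1 to 2 brake genes. Values near 0 changed sign without a call: MCM2 had -0.0086 (DESeq2), -0.0024 (limma-voom), -0.0046 (DESeq2 size factors) and -0.0078 (no filter), and -0.0325 to 0.0242 without a mare. Without a mare E2F1 ran from -0.16 to 0.17, PCNA from -0.0212 to 0.0495 and LIN37 from -0.0014 to 0.24. The causes were not tested. Few reads kept 13 genes, CDC45 and 12 cyclin, kinase and mitotic genes, from being tested.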
